A study of Mus musculus with 3 samples.

Results

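The set described here holds 10 mouse genes that recognise microbial products or pass on that signal: the Toll-like receptors Tlr1, Tlr2, Tlr3, Tlr4, Tlr6, Tlr7 and Tlr9, the endotoxin co-receptors Cd14 and Ly96, and the adaptor Myd88. They were taken by gene name from the array annotation, and the set was chosen with earlier results of these data known. They make up 10 of 36609 named genes, read by 18 of 56599 probes. The cultures were spleen cells from male, 6-month-old MRL/MpJ animals that spent 3 h in contact with MRL/MpJ-Faslpr/lpr urine (called lpr urine), MRL/MpJ urine, or PBS. The lpr mutation disables the death receptor Fas and gives a lupus-like disease on this background; here it was carried by urine donors only, and the cultured cells were MRL/MpJ in all conditions. Urine of each strain was pooled from 6 males aged 6 months and passed through a 0.22 µm filter, wells held 500 µL, and the cells are a mixed spleen suspension after red cell lysis. The labels describe the collection of the spleen of 1 mouse in one field and of spleens in another, and give neither the share of urine in the well nor its endotoxin content. Each condition had 1 array, so there was no replicate, no test and no p-value, and treatment, well and array cannot be told apart.

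Toll-like receptors are single-pass membrane proteins that bind microbial molecules through leucine-rich repeats and signal through an intracellular TIR domain. At the cell surface Tlr2 pairs with Tlr1 or Tlr6 to bind bacterial lipopeptides, and Tlr4 with Ly96 (also called MD-2) binds lipopolysaccharide handed over by Cd14. Tlr3, Tlr7 and Tlr9 sit in endosomes and bind double-stranded RNA, single-stranded RNA and unmethylated CpG DNA, and Myd88 carries the signal of all these receptors except Tlr3. In the spleen, macrophages and other myeloid cells are among the cells that carry the endotoxin receptors. B cells and plasmacytoid dendritic cells are among those that carry Tlr7 and Tlr9, and neither set of receptors is confined to the cells named.

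Signals are the scanner software's processed signal in arbitrary brightness units, background-subtracted and not scaled between arrays. The 75th percentile of the array was 75.7 units with lpr urine, 86.6 with MRL/MpJ urine and 157.5 with PBS, and 55.3%, 56.4% and 59.0% of probes in the same order of conditions were well above background. Both urine arrays were therefore dimmer than the PBS array, while the E1A spike-in RNA, added to the labelling reactions, differed from PBS by a median of −0.07 (lpr urine) and 0.04 (MRL/MpJ urine) on the log2 scale. Differences below are log2 processed signal minus the 75th percentile of its array, urine minus PBS, unless another scale is named. Because scaling by spike-ins instead moves the median of all measured probes by −0.99 (lpr urine) and −0.91 (MRL/MpJ urine), a difference of that size can change with the scale. Repeated spots of one probe gave a median SD of a log2 difference of 0.052 at signals of 8 or more on the log2 scale (808 probe-array pairs), 0.122 between 5 and 8 (18 pairs) and 0.261 below 5 (34 pairs), which covers the noise between spots only. In a mixed culture, fewer cells of a type and less RNA per cell cannot be told apart.

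The probes on which the results turn are shown by the first 30 bases, as the array files give them, because for 2 genes the probes of one gene gave different answers. Coordinates are those of the array annotation on mouse build mm9 and cover the bases printed. The files do not place the probes in exons or UTRs. Capitals mark the start of a run of alternating C and A in a Ly96 probe.
Ly96, bright probe, chr1:16699612-16699641, plus strand: caattagaatatgctgaatACACACACACA
Ly96, dim probe, chr1:16678610-16678639, plus strand: tcgacgctgctttctcccatattgactgaa
Tlr4, probe inside the gene, chr4:66503724-66503753, plus strand: tgtgatagggctttaaatagttgagctaat
Tlr4, far probe, chr4:66591199-66591228, plus strand: tcttccatagtttgtgcttcatgtccctgc
Tlr2, chr3:83640374-83640403, minus strand: ccttggatgaaggccagcaggaagtgtttt
Tlr1, first probe, chr5:65316024-65316053, minus strand: ggggagttctaataatagtaccattcatat
Tlr6, chr5:65344395-65344424, minus strand: ttatgaagttagccttagtcaatgaggatg
Tlr9, chr9:106128979-106129008, plus strand: ctggttcccgagttgctctgcctgccttgc
The whole Ly96 bright probe holds a CA run of 31 bases, whereas no other member probe holds one longer than 4 bases. Tlr1 and Tlr6 are neighbouring genes with closely related proteins, but their probes shared no run longer than 6 bases.

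In cells given either urine, the surface receptor Tlr2 and the endotoxin co-receptor Cd14 were lower than with PBS, by 3.27-fold and 3.24-fold with lpr urine and by 3.31-fold and 4.43-fold with MRL/MpJ urine. The DNA sensor Tlr9 was 2.48-fold higher with lpr urine and 2.34-fold higher with MRL/MpJ urine. Ly96 read 4.74-fold and 5.49-fold higher on a probe whose sequence is discussed with its values. Tlr1, Tlr3, Tlr4, Tlr6, Tlr7 and Myd88 stayed within 2-fold of PBS with both urines. With each urine, then, 2 members of the 10 lay at least 2-fold above PBS and 2 at least 2-fold below it, 4 either way. Over all genes measured on both arrays, 18.5% were that much higher and 12% that much lower with lpr urine (30.4% either way), and 16.9% and 11.1% with MRL/MpJ urine (28% either way). The members' share past 2-fold was thus near that of all genes. Their median difference was −0.04 with lpr urine and −0.03 with MRL/MpJ urine, where all genes gave 0.15 and 0.13. Of the 18 probes, 15 were well above background on all arrays and 3, of Tlr3, Tlr4 and Tlr7, on none. No member spot was saturated, and the software's own error on the 15 measured probes lay between 10% and 17.6% of the signal.

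**Figure D1:**
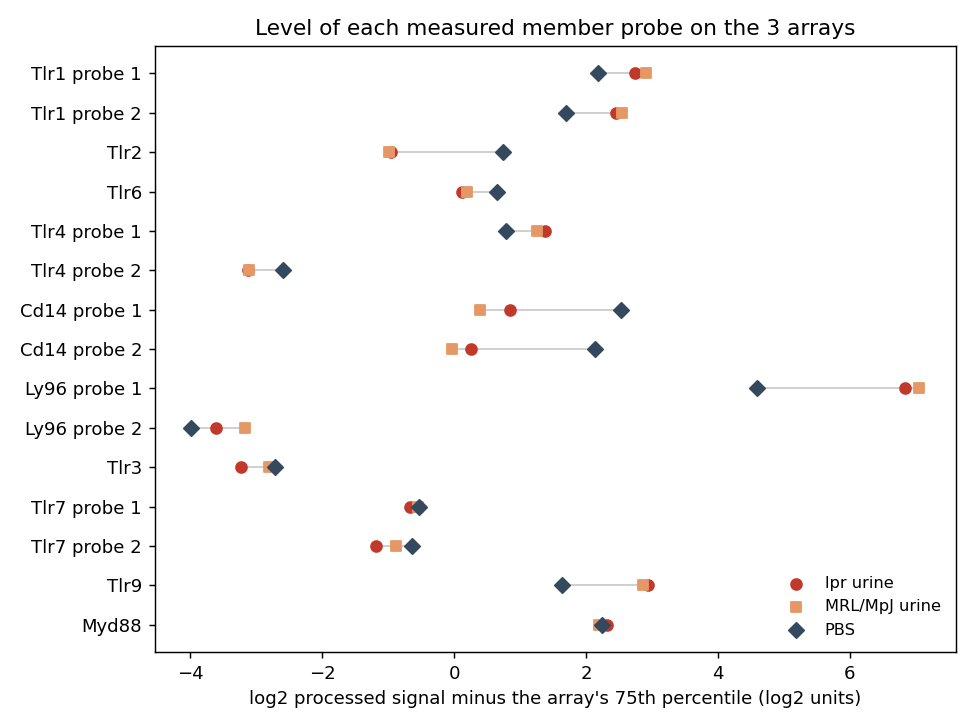
Level of the 15 member probes measured on all arrays (log2 processed signal minus the 75th percentile of the array), with 1 point per array for lpr urine, MRL/MpJ urine and PBS; levels of different probes are not comparable. The points of both urines lie together and left of PBS for Tlr2 and both Cd14 probes, right of PBS for Tlr9 and the first Ly96 probe, and the 2 measured Tlr4 probes lie on opposite sides of PBS.

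Among the lipopeptide receptors, Tlr2 was the one that differed most. Its single probe gave 38.9 units with lpr urine, 43.9 with MRL/MpJ urine and 264 with PBS. Both urine arrays were low and close to each other, with scaled differences of −1.71 (lpr urine) and −1.73 (MRL/MpJ urine) and a gap of 0.02 between the urines. Without any scaling the signal was 6.80-fold lower with lpr urine and 6.03-fold lower with MRL/MpJ urine. Over the processing settings tried, the difference ran between −2.70 and −1.04 with lpr urine and between −2.64 and −1.08 with MRL/MpJ urine, and stayed past 2-fold in all of them.

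Tlr1, which joins Tlr2 for triacylated lipopeptides, did not follow it. Its first probe gave 506 units with lpr urine, 654 with MRL/MpJ urine and 714 with PBS, and a second probe 61 bases away gave 414, 507 and 511 units in that order. Raw signals were highest with PBS, but after scaling both urine arrays were above it, by 0.56 (lpr urine) and 0.73 (MRL/MpJ urine) on the first probe and by 0.75 and 0.85 on the second. With spike-in scaling the sign of the first probe turned, to −0.43 with lpr urine and −0.17 with MRL/MpJ urine. Tlr6, which joins Tlr2 for diacylated lipopeptides, gave 82.1 units with lpr urine, 99.2 with MRL/MpJ urine and 246 with PBS. This put it between its partners, at −0.53 with lpr urine and −0.45 with MRL/MpJ urine; it was below PBS under every setting tried, and past 2-fold with spike-in scaling only, at −1.52 and −1.36. Taking one gene's difference minus another's on the same arrays removes any factor common to a whole array. On that footing Tlr1 stood above Tlr2 by 2.27 with lpr urine and 2.46 with MRL/MpJ urine, and Tlr6 stood above Tlr2 by 1.18 and 1.28. Under normexp background correction the gap of Tlr1 over Tlr2 was smaller, 1.28 with lpr urine and 1.57 with MRL/MpJ urine. So was that of Tlr6 over Tlr2, 0.57 and 0.69. That setting adds an offset of 50 units to every signal, which shrinks ratios between dim signals. Tlr2 gave fewer units than that with either urine.

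**Figure D2:**
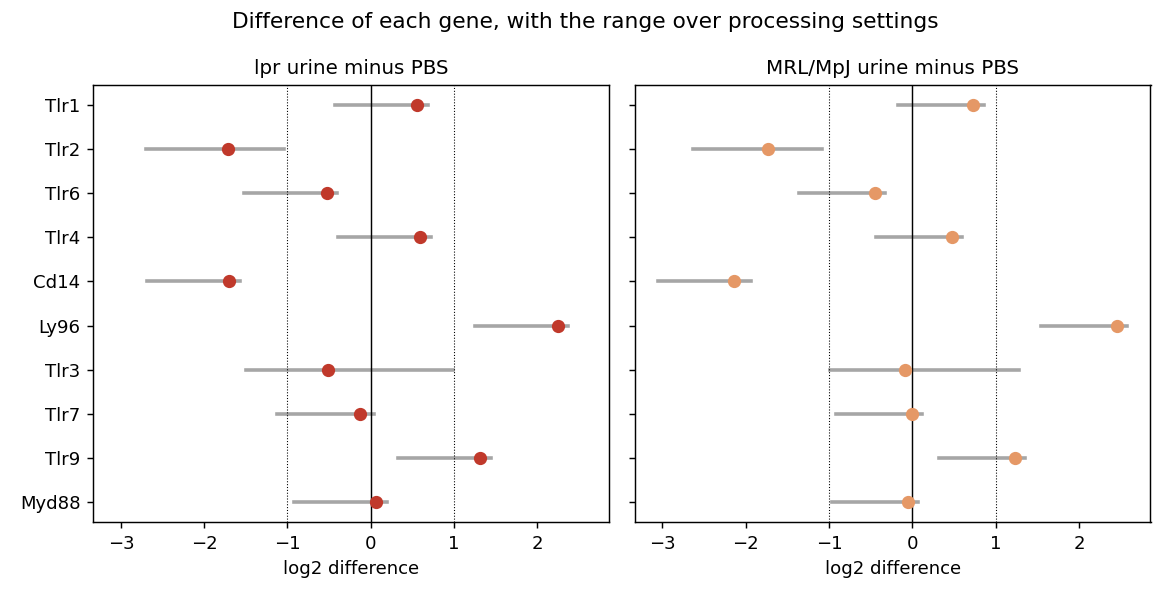
Log2 difference from PBS of each gene (points, the chosen probe of each gene; lpr urine left, MRL/MpJ urine right), with grey bars from the lowest to the highest value over the processing settings fixed at the outset and dotted lines at 2-fold. The bars of Tlr2 and Cd14 stay left of −1, that of Tlr9 stays right of 0 but crosses the 2-fold line, and those of Tlr1, Tlr3, Tlr4, Tlr7 and Myd88 cross 0 in both panels.

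For Tlr4, the signalling receptor for lipopolysaccharide, the answer depended on the probe. The probe inside the gene was near background with the urines. It gave 8.70 units with lpr urine, 10.1 with MRL/MpJ urine and 26.0 with PBS. Both urine arrays lay below PBS, at −0.52 (lpr urine) and −0.51 (MRL/MpJ urine). The brightest probe annotated to Tlr4 gave 196 units with lpr urine, 207 with MRL/MpJ urine and 271 with PBS. It stood above PBS after scaling, at 0.59 and 0.47, but with spike-in scaling its sign turned, to −0.40 and −0.43. That far probe lies 87.4 kb beyond the inside probe and is annotated to an Ensembl transcript, whereas the RefSeq gene spans 19031 bases (assembly GRCm38). Neither difference reached 2-fold, and the remaining probe was not well above background on any array. Whether the far probe reads Tlr4 messenger RNA was not tested.

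Cd14, the glycolipid-anchored protein that passes lipopolysaccharide to Tlr4 and Ly96, was low with both urines on both of its probes. The first probe gave 136 units with lpr urine, 114 with MRL/MpJ urine and 916 with PBS, and the second, 182 bases away, gave 90.0, 84.6 and 691 units. Both urine arrays were far below PBS on both probes. The scaled differences were −1.70 (lpr urine) and −2.15 (MRL/MpJ urine) on the first probe and −1.88 and −2.17 on the second. Over the settings tried the value for the gene lay between −2.69 and −1.57 with lpr urine and between −3.05 and −1.93 with MRL/MpJ urine. Cd14 was the member with the largest gap between the urines on the higher side, 0.45 more with lpr urine on the first probe and 0.28 on the second, which is well within 2-fold.

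Ly96, the secreted protein that forms the lipopolysaccharide pocket on Tlr4, gave 8699 units with lpr urine, 11510 with MRL/MpJ urine and 3815 with PBS on its bright probe. Both urine arrays were far above PBS, by 2.25 (lpr urine) and 2.46 (MRL/MpJ urine), and these were the largest positive differences among the members. The dim probe, 20.9 kb away and annotated to another Ly96 transcript variant, gave 6.19, 9.61 and 9.91 units in that order, close to the lowest signals called above background (4.43 to 4.47 units). There the differences were 0.38 and 0.82, neither past 2-fold.

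The bright Ly96 probe belongs to a class of probes that behaved alike, a comparison that was added after the values were seen. On the array, 32 probes of 32 genes, that of Ly96 included, hold a CA run of 20 or more bases. All 32 were well above background on all arrays, and all 32 were at least 2-fold above PBS with each urine. Their differences had a median of 2.11 (1.73 to 2.49) with lpr urine and 2.38 (2.01 to 2.63) with MRL/MpJ urine. Between the urines their median was −0.21 (−0.31 to −0.00345), where the bright Ly96 probe gave −0.21. Among probes with CA runs under 8 bases, 16.7% were at least 2-fold higher with lpr urine and 15.2% with MRL/MpJ urine. With runs of 8 to 15 bases the shares were 43.3% and 40.8%, and with runs of 16 to 19 bases 8 of 9 probes were higher with each urine. A change in Ly96 messenger RNA and the shift of the CA-repeat probes cannot be told apart on this probe, and what the shift of these probes stems from was not tested. With Ly96 read from its dim probe, 1 member, Tlr9, was at least 2-fold higher with each urine.

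**Figure D3:**
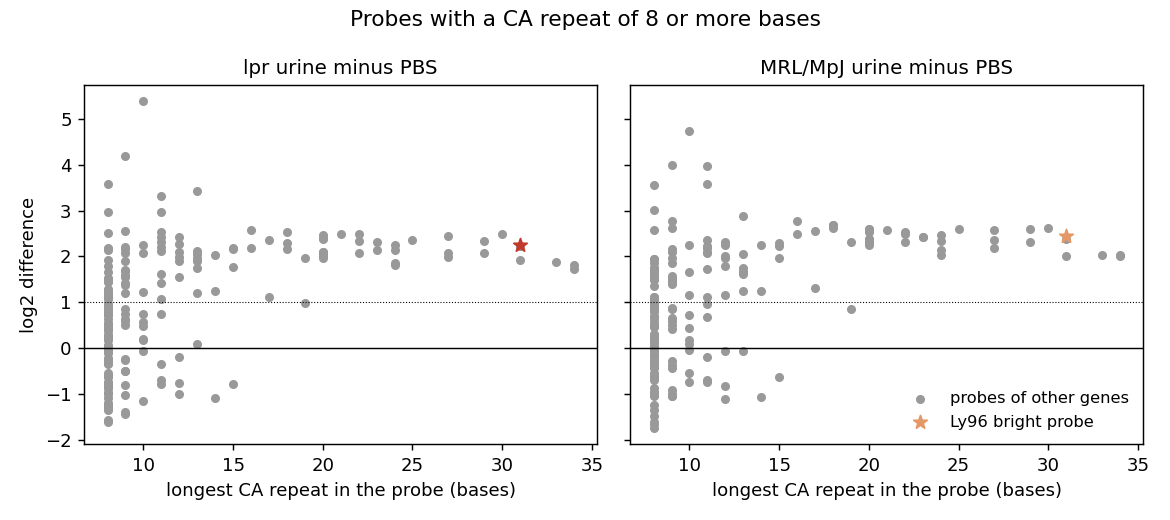
Log2 difference from PBS (lpr urine left, MRL/MpJ urine right) against the longest CA run of a probe, for probes measured on all arrays with a run of 8 bases or more; the star is the bright Ly96 probe and the dotted line is 2-fold. All probes with 20 or more bases lie above the 2-fold line in a narrow band, and the Ly96 star lies inside it.

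Of the endosomal receptors, Tlr9 stood apart. Its probe gave 583 units with lpr urine, 629 with MRL/MpJ urine and 488 with PBS. It was, with the bright Ly96 probe, the only member probe well above background whose raw signal was higher with both urines than with PBS, by 1.19-fold (lpr urine) and 1.29-fold (MRL/MpJ urine) before scaling. After scaling the difference was 1.31 and 1.23, and it kept its sign under all settings tried, from 0.32 to 1.44 with lpr urine and from 0.32 to 1.35 with MRL/MpJ urine. It was under 2-fold with scaling by the array median, with spike-in scaling and with normexp background correction.

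Tlr7, which lies next to Tlr8 on the X chromosome, gave 47.6 units with lpr urine, 59.5 with MRL/MpJ urine and 109 with PBS. A second probe, 223 bases away, gave 33.3, 46.9 and 102 units. After scaling the first probe was near PBS, at −0.13 (lpr urine) and −0.01 (MRL/MpJ urine), and the second was lower, at −0.55 and −0.25. Tlr9 thus exceeded Tlr7 by 1.45 with lpr urine and 1.24 with MRL/MpJ urine on the same arrays, and by 0.90 and 0.86 under normexp. Tlr3, which signals through Ticam1 rather than Myd88, was near background, with 8.07 units for lpr urine, 12.4 for MRL/MpJ urine and 23.9 for PBS. Its differences of −0.51 and −0.08 changed sign with the setting, and repeated spots this dim had an SD of 0.261. Its other probe was not above background.

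Myd88, the adaptor shared by the surface receptors, Tlr7 and Tlr9, gave 376 units with lpr urine, 397 with MRL/MpJ urine and 749 with PBS. Scaled, it was nearly level, at 0.06 and −0.05. Tlr9 exceeded it by 1.25 with lpr urine and 1.28 with MRL/MpJ urine, a gap that kept its size under normexp (1.13 and 1.18). Leaving out Ly96, whose bright probe holds the CA run, Tlr9 stood above Tlr2 by 3.02 with lpr urine and 2.96 with MRL/MpJ urine, and above Cd14 by 3.01 and 3.37. Under normexp the gap of Tlr9 over Tlr2 was 1.97 and 2.02. The order Tlr9 above Myd88 above Tlr2 was therefore the same on both urine arrays, which share their PBS array.

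Between the urines, none of the 10 members differed 2-fold, where 0.4% of 20012 genes measured on both arrays did (0.34% higher and 0.06% lower with lpr urine). The member differences, lpr urine minus MRL/MpJ urine, ran from −0.42 (Tlr3, near background) to 0.45 (Cd14), with a median of −0.03 against 0.00465 for all genes. Tlr2 differed by 0.02, Tlr6 by −0.08, Tlr9 by 0.08, Myd88 by 0.12, Tlr7 by −0.13 and Tlr1 by −0.17.

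The starts of Tlr2 and Tlr9 are shown because these are the receptors that lay past 2-fold on opposite sides of PBS and had an entry in the RefSeq promoter table (GRCm38.p6), which matched 6 of the 10 members. Capitals mark the kB consensus, bound by NF-kB, in Tlr2 and the AP-1 motif TGACTCA in Tlr9, within the 250 bases before the start.
Tlr2, chr3:83841609-83841858, minus strand: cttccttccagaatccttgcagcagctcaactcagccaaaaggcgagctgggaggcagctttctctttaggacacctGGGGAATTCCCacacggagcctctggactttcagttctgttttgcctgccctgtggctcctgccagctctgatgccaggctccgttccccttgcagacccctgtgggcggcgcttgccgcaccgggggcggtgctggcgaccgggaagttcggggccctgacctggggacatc
Tlr9, chr9:106222348-106222597, plus strand: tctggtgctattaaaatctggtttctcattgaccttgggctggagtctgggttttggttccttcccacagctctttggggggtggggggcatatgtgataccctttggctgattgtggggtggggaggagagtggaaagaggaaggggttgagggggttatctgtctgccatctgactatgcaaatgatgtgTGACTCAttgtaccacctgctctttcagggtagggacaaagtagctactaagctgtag
The motifs were searched on both strands, and the form of the kB consensus was set after these promoters had been read. The 6 members had 8 promoter entries, as Tlr1 and Tlr6 had 2 each. The kB consensus was in 2 of the 8, Tlr2 and Tlr3, and in 7.25% of all 32851 promoters. In Tlr2 matches on both strands overlap in a single stretch. TGACTCA was in 1 of 8 (Tlr9) and in 4.46% of all. The PU.1-like motif GAGGAAGT was in 1 of 8, an entry of Tlr1 whose other entry had none, and in 2.44% of all. The interferon-response-like (ISRE-like) motif was in 2 of 8, Myd88 and 1 of the Tlr6 entries, and in 2.98% of all. These are matches of letters, not sites of binding.

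Around the members, the rest of the pathway was mixed. The counts below are of genes measured on both arrays, with 75th-percentile scaling and then with spike-in scaling, which moved every list towards lower. Of all genes, 18.5% were at least 2-fold higher and 12% lower with lpr urine, and 16.9% and 11.1% with MRL/MpJ urine. With spike-in scaling these shares were 5.59% and 44.0% with lpr urine, and 5.58% and 40.9% with MRL/MpJ urine. The same shares stand beside the counts of cell type markers. Of 9 other ligand sensors, 5 were measured on both arrays with lpr urine and 6 with MRL/MpJ urine. With each urine 1 was at least 2-fold higher and 1 lower. With spike-in scaling none was higher and 2 were lower with each. Dim sensors not measured on both arrays were not counted. Tlr11, measured with both urines but not PBS (6.81 and 6.35 units), was at least 3.17-fold and 2.58-fold higher. Tlr8, measured with MRL/MpJ urine only (5.58 units), was at least 2.17-fold higher there. With spike-in scaling Tlr11 read 0.80 and 0.59 and Tlr8 0.21. Tlr5, measured with PBS only, and Lbp, not measured with lpr urine, gave no bound. Ly86, the Cd180 partner also called MD-1, was higher at 1.08 (lpr urine) and 1.18 (MRL/MpJ urine). With spike-in scaling it read 0.09 with lpr urine and 0.27 with MRL/MpJ urine. Cd180, a B cell relative of Tlr4, read −2.45 and −2.06 on its brightest probe, yet its probes ran from −2.65 to 0.41 with lpr urine. Tlr12 and Tlr13, rodent receptors for profilin and bacterial ribosomal RNA, were within 2-fold, at 0.15 and 0.75 with lpr urine and at 0.06 and 0.63 with MRL/MpJ urine. Among 11 genes of receptor folding and trafficking, none was past 2-fold with lpr urine and 1 was higher with MRL/MpJ urine. That gene was Unc93b1, which carries the endosomal receptors out of the endoplasmic reticulum; it read 0.92 with lpr urine and 1.02 with MRL/MpJ urine, and −0.07 with spike-in scaling and lpr urine. With that scaling no gene of this list was higher, and 6 were at least 2-fold lower with lpr urine and 5 with MRL/MpJ urine. Of 20 adaptors and proximal kinases, 19 were within 2-fold with each urine, Tirap (0.02 and −0.02) and Irak1 (0.45 and 0.45) among them, but with spike-in scaling 13 were at least 2-fold lower with lpr urine and 11 with MRL/MpJ urine. The ubiquitin ligase Traf6 was the exception at −2.48 (lpr urine) and −2.51 (MRL/MpJ urine), while another of its 4 probes read −0.20 with lpr urine, and with MRL/MpJ urine its probes ran from −2.51 to 0.16.

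The inhibitors of the pathway lay on both sides of PBS, 3 of 14 higher and 4 lower with lpr urine and 2 higher and 5 lower with MRL/MpJ urine. With spike-in scaling 1 was higher and 8 were lower with each urine. Nfkbia, the inhibitor that holds NF-kB in the cytoplasm, gave 17342 units with lpr urine, 19644 with MRL/MpJ urine and 8868 with PBS, a difference of 2.02 and 2.01 (1.03 with spike-in scaling and lpr urine). Dusp1, a phosphatase of MAP kinases, read 1.03 with lpr urine and 0.56 with MRL/MpJ urine on its chosen probe and 0.53 and 0.54 on the other, and with spike-in scaling 0.04 with lpr urine. Zc3h12a, an RNase that degrades cytokine messenger RNA, read 1.15 and 1.25 on its brightest probe and as little as −0.13 on another with lpr urine. Tnfaip3, the deubiquitinase A20, was far lower, with 477 units for lpr urine, 516 for MRL/MpJ urine and 5718 for PBS, or −2.53 and −2.61. Il1rl1, the IL-33 receptor, stood at −1.87 and −2.22 and Tnip1, a partner of A20, at −1.45 and −1.32. Il1rl1 was dim with the urines, at 9.47 units (lpr urine) and 8.52 (MRL/MpJ urine). The other Tnip1 probe read −1.14 with lpr urine and −0.87 with MRL/MpJ urine, the latter short of 2-fold. Among 11 transcription factors below the receptors none was higher and 2 were lower with each urine, Rel at −2.59 and −2.74 and Irf3 at −1.24 and −1.12, and the list's median was −0.84 with lpr urine and −0.79 with MRL/MpJ urine. With spike-in scaling 9 were lower with lpr urine and 8 with MRL/MpJ urine, and the medians were −1.83 and −1.70. Nfkb1, Nfkb2 and Rela read −0.86, −0.93 and −0.93 with lpr urine on their chosen probes, short of 2-fold. Other probes read 0.07 for Nfkb1, −0.69 for Nfkb2 and −1.24 for Rela with lpr urine, that of Rela past 2-fold. The other Irf3 probe read −0.89 (lpr urine) and −0.73 (MRL/MpJ urine), short of 2-fold, and that of Rel −1.02 and −1.32.

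The genes that these receptors are known to induce also lay on both sides with this scaling. With lpr urine 4 of 22 were at least 2-fold higher and 8 lower, and with MRL/MpJ urine 5 of 20 were higher and 6 lower. With spike-in scaling the split turned mostly to lower, 2 higher and 12 lower with lpr urine and 1 higher and 12 lower with MRL/MpJ urine. Some calls depended on the probe. Cxcl10, counted as lower at −1.10 (lpr urine) and −1.40 (MRL/MpJ urine), read 2.41 and 2.18 on its other probe. Cd80, counted as higher with MRL/MpJ urine at 1.04, had a probe at −1.91 there. Il1b, counted as within 2-fold, had a probe at −2.54 with lpr urine and −2.75 with MRL/MpJ urine. Cxcl2, a neutrophil-attracting chemokine, gave 370 units with lpr urine, 235 with MRL/MpJ urine and 94.9 with PBS (3.02 and 2.17). Ptgs2, the inducible cyclooxygenase, was higher at 2.43 and 1.48, Marco, a scavenger receptor of macrophages, at 1.68 and 1.28 and Tnf at 1.23 and 1.41. With spike-in scaling and lpr urine Cxcl2 and Ptgs2 stayed past 2-fold at 2.03 and 1.44, and Tnf read 0.24. With that scaling and MRL/MpJ urine Cxcl2 stayed past 2-fold at 1.26, while Ptgs2 read 0.58 and Tnf 0.51. The chemokine Ccl4 gave 134 units with lpr urine, 200 with MRL/MpJ urine and 7097 with PBS, a difference of −4.67 and −4.29. Acod1, which makes itaconate, was at −3.07 and −3.34 and the C-type lectin receptor Clec4e at −2.96 and −3.24. Il6 was well above background with PBS only (92.7 units) and was at least 10.1-fold lower with lpr urine and at least 11.4-fold lower with MRL/MpJ urine. Thus Tlr2 and Cd14 were low beside other low genes such as Ccl4, Acod1 and Tnfaip3, while Nfkbia, Cxcl2 and Ptgs2 were high on the same arrays.

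**Figure D4:**
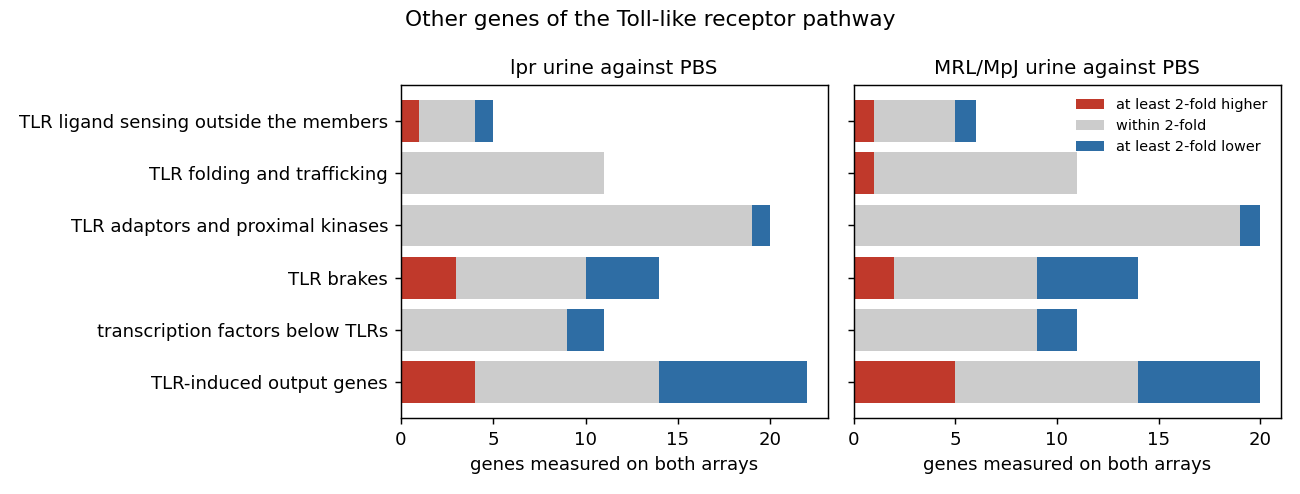
Number of genes at least 2-fold higher (red), within 2-fold (grey) or at least 2-fold lower (blue) than PBS in 6 lists of pathway genes outside the members, for lpr urine (left) and MRL/MpJ urine (right). Adaptors and kinases lie almost wholly within 2-fold, transcription factors have lower genes only, and output genes have both; arrays are scaled by the 75th percentile, and with spike-in scaling lower genes outnumber higher ones in all 6 lists.

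Cell type markers were read beside the members. Of 14 monocyte and macrophage markers 12 were measured on each array (Fcgr1 and Vsig4 were on none), 6 were at least 2-fold higher with each urine and none lower, and the median was 0.96 with lpr urine and 0.92 with MRL/MpJ urine. With spike-in scaling those medians were −0.03 and 0.02. None was then at least 2-fold higher with lpr urine, and 1 was with MRL/MpJ urine, Itgam at 1.34. Their summed signal, in multiples of the array's 75th percentile, was 214 with lpr urine, 237 with MRL/MpJ urine and 109 with PBS. Itgam, among the 6 at 1.96 (lpr urine) and 2.25 (MRL/MpJ urine), is read there by a probe with a CA run of 20 bases. Its other probe read 0.76 and 0.22, within 2-fold. Without Itgam the sums were 153, 161 and 93.1. B cell markers, all 10 measured, summed to 479 with lpr urine, 501 with MRL/MpJ urine and 246 with PBS, and 4 were at least 2-fold higher with lpr urine and 5 with MRL/MpJ urine. With spike-in scaling 1 was higher and 2 were lower with each urine, the medians were −0.07 (lpr urine) and 0.05 (MRL/MpJ urine), and Tlr9 read 0.32 with each. Neutrophil markers (10 of 10 measured) summed to 843 with lpr urine, 851 with MRL/MpJ urine and 442 with PBS, dendritic cell markers (9 of 10, without Xcr1) to 184, 196 and 134, and T cell markers (9 of 10, without Trac) to 338, 318 and 307. Such sums weigh bright probes most. Of the neutrophil markers 2 were at least 2-fold higher with each urine, and Mpo was lower with lpr urine (−1.19). Of the dendritic cell markers 2 were higher with each urine, and Zbtb46 was lower (−2.45 and −2.23). Zbtb46 was near background with the urines, at 4.76 units (lpr urine) and 6.31 (MRL/MpJ urine). Its other probe read −0.77 with MRL/MpJ urine, short of 2-fold. With spike-in scaling the medians with lpr urine and MRL/MpJ urine were −0.18 and −0.22 (neutrophil), −0.55 and −0.43 (dendritic cell) and −0.77 and −0.77 (T cell). Of 10 markers of urinary tract epithelium 8, the uroplakins Upk1b, Upk2, Upk3a and Upk3b, Krt5, Krt7, Krt19 and Umod, were on no array well above background. The other 2, Upk1a and Krt18, were measured on each array, and 1 of them was at least 2-fold higher with each urine. With spike-in scaling none was higher and 1 was lower with each. The part of cell composition in the members' differences was not tested.

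The genes whose 2 differences from PBS lay nearest to those of a member, among 12661 named genes measured on all arrays, were found by the straight-line distance over the lpr and MRL/MpJ values. Both differences use the same PBS array. For Tlr2 they were Trmt61a, Snrpd1 and Lsm10, with 70 genes within a distance of 0.1, so its pattern was shared by many genes. For Tlr9 they were Olfr1198, Ptges and Arrdc4, with 104 genes within that distance. Cd14 had 3 genes within 0.1, Asph, Hnrnpu and Nfkbid. Near the bright Ly96 probe were Tacr2, itself read by a probe with a CA run of 24 bases, Hsp90aa1 and Pld4, with 9 genes within 0.1.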

How the data were processed

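The deposited files hold spot intensity readings of 3 one-colour (Cy3) Agilent arrays on 1 slide and 1 scan, per the file headers, with background subtracted by the scanner software. Feature Extraction 12.0.3.1 is named in the submitters' processing notes. Each array had 62976 spots, 59305 of them not controls, read as 56605 probes, of which 6 were left out because an array marked all their spots as outliers. Repeated spots were averaged; log2 processed signal was reduced by the array's 75th percentile. A gene counted as apart where both arrays measured its probe well above background and differed 2-fold; among several probes the one measured on most arrays, then the brightest, was used. All members are named; of each list, up to 3 genes each way past 2-fold, and others were named after their values were seen. Scalings by median, E1A spike-ins (8 of 10 probes measured) and quantiles, normexp with offset 50 (limma 3.58.1, R 4.3.3), filters and 1.5-fold were tried. Python 3.11.15, numpy 2.4.6 and pandas 2.3.3 were used; the counting was tested on simulated data. Bounds for genes measured on one side use the lowest signal well above background. Members and lists were chosen with earlier results of these data known. The number of arrays limits the precision.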

Additional observations from a re-analysis of the deposited data

Results flagged for a closer look

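Myd88 stood on opposite sides of PBS in the urines, at 0.0637 with lpr urine and −0.05 with MRL/MpJ urine on the log2 scale. The difference between the urines was not tested, and both values are near the SD of a log2 difference between repeated spots of that brightness, 0.052. With spike-in scaling both were below PBS, at −0.93 with lpr urine and −0.96 with MRL/MpJ urine.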

How the results depend on the processing

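The counts of members past 2-fold depended on the scale of the arrays and, for Ly96, on the probe. With scaling by the array median, with E1A spike-in scaling and with normexp, 1 member in place of 2 was at least 2-fold higher with each urine, Ly96 on its bright probe; of all genes 11.1% (lpr urine) and 10.6% (MRL/MpJ urine) were then higher with the median and 7.32% and 6.97% with normexp. With Ly96 read from its dim probe, an alternative chosen after seeing the data, 1 member was higher with each urine. With spike-in scaling 5 members were at least 2-fold lower with lpr urine (Tlr2, Tlr6, Cd14, Tlr3 and Tlr7) and 3 with MRL/MpJ urine; all genes then divided into 5.59% higher and 44.0% lower with lpr urine and 5.58% and 40.9% with MRL/MpJ urine. The remaining counts of members were within 1.5 times those reported. Tlr2 and Cd14 were at least 2-fold lower with both urines in every setting that recomputed them. Relative to the 75th percentile, scaling by the median moved the median of all measured probes by −0.39 (lpr urine) and −0.37 (MRL/MpJ urine). No paired analysis was possible because each condition had 1 array. Tlr3, the inside Tlr4 probe and the dim Ly96 probe were near background, where small differences cannot be read.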

Other observations

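Probes with long CA runs outside the members gave the same picture across unrelated genes, among them Klhl32, Nalcn, Oprm1, Lhx6, Slc8a3 and Zfp663, each at least 2-fold higher than PBS with both urines. Before scaling, the 32 probes with runs of 20 or more bases differed from PBS by a median of 1.06 with lpr urine and 1.52 with MRL/MpJ urine, where probes with runs under 8 bases differed by −0.98 and −0.81. The bright Ly96 probe shares a run of 33 bases with a probe of Klhl32, and no other member probe shares more than 16 with a probe of another gene. These probes were looked for after the Ly96 values had been seen.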
